A study of Mus musculus with 2 samples.

Results

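Open chromatin was examined at 8 genes of the oviduct and of the Müllerian epithelium in the ovary of aged mice. The genes were Pax8, Pax2, Lhx1, Sox17, Foxj1, Ovgp1, Epcam and Cdh1, out of 21755 protein-coding genes (autosomes and X). For each gene, all peaks of the longer peak list of each library and all footprints were taken within the GENCODE M21 gene body and 50 kb either side, on mouse build mm10. The measured tissue was whole ovary from adult female B6CASTF1/J mice, first-generation hybrids of C57BL/6 and CAST, at 18 to 20 months. No treatment, transgene or deleted allele is given in the labels. DNase-seq, the assay, reads the ends that the nuclease DNase I leaves where it cuts accessible DNA. The series has 1 group of 2 libraries, called biological replicates 1 and 2, with separate biosamples under a single donor entry. Whether they came from separate animals and whether the oviduct was trimmed from the ovary are points not given in the sources used here, and the spread between them may be technical. With 1 group and 2 libraries nothing was tested, and the results are counts and values beside those of all genes or regions.

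The Müllerian ducts of the embryo form the oviducts, the uterus and the upper vagina. Pax2 and Lhx1 are needed for the ducts to form, and Pax8, a close relative of Pax2, stays active in the secretory cells of the adult oviduct. The oviduct epithelium consists of secretory cells, which release the glycoprotein oviductin encoded by Ovgp1, and ciliated cells, whose motile cilia depend on the forkhead factor Foxj1. Sox17 is a transcription factor of several epithelia and of endothelium. Epcam and Cdh1, the E-cadherin gene, encode adhesion proteins of epithelial cells in general. The surface of the ovary itself is covered by a mesothelium.

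Promoters were taken as 500 bp either side of any annotated start of a gene, and a promoter was open when a peak overlapped it by at least 1 bp in both libraries. Foxj1 and Cdh1 had a peak at the annotated 5′ end in both libraries. Pax8 and Ovgp1 had one in replicate 2 only. The reference sequence of these 4 peaks upstream of the gene is shown first, since they contrast the genes whose own 5′ end was open in both libraries with the secretory cell genes. Letters are from assembly GRCm38.p6, read 5′ to 3′ on the gene's strand, and carry no CAST alleles. Capitals mark bases inside footprints, which are short stretches protected from cutting: for Foxj1 and Cdh1 bases protected in both libraries, for Pax8 and Ovgp1 bases protected in replicate 2.
Foxj1 upstream chr11:116335400-116335560 (minus strand): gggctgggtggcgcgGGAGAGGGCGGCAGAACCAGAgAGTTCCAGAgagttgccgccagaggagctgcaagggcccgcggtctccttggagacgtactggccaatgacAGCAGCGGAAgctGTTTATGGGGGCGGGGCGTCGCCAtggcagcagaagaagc
Cdh1 upstream chr8:106603221-106603350 (plus strand): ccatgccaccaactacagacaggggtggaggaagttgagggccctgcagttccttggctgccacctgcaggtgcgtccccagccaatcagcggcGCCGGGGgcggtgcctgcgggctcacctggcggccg
Pax8 upstream chr2:24475600-24475740 (minus strand): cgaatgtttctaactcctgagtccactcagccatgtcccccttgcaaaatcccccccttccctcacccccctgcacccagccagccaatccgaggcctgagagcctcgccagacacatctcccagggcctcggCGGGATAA
Ovgp1 upstream chr3:105973642-105973710 (plus strand): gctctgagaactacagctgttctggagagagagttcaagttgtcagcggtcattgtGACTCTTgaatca

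The Foxj1 stretch of 161 bp had a GC content of 65.8%, and 64 of its bases were protected in both libraries. These included both matches to the SP/KLF consensus GGGCGG. Of the 130 bp of Cdh1, with a GC content of 70%, 7 bases were protected in both. They overlap the start of its GGGCGG match. The Pax8 and Ovgp1 stretches are poorer in CpG, with 5 CpG in 141 bp and 1 in 69 bp, against 11 in Foxj1 and 8 in Cdh1. Over 1 kb around the annotated 5′ end, the observed-to-expected CpG ratio was 0.221 for Pax8, 0.207 for Ovgp1 and 0.466 for Epcam. It lay between 0.677 and 0.840 for the other 5 members, which include Pax2 at 0.699.

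Of the 8 genes, 5 had a promoter peak in both libraries (62.5%), against 62.3% of all 21755 genes. The members' share is thus at the background and says nothing particular about them. By library, 6 members had a promoter peak in replicate 1 and 7 in replicate 2, against 64.6% and 64.0% of all genes. Those without one in both, Pax8, Pax2 and Ovgp1, had a promoter peak in 1 library only, as did 4.10% of all genes. All 8 thus had a promoter peak in at least 1 library, beside 62.3% of all genes with one in both and 4.10% with one in 1 library only. The openings were mostly weak. Over the 5 open genes the mean promoter signal had a median of 1.09, against 4.03 for the 13545 open genes of the genome, whose 5th and 95th percentiles were 0.669 and 13.2. Signal here is the authors' own strength value of a peak, scaled by them for depth, and a gene's promoter signal is that of its strongest promoter peak.

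**Figure D1:**
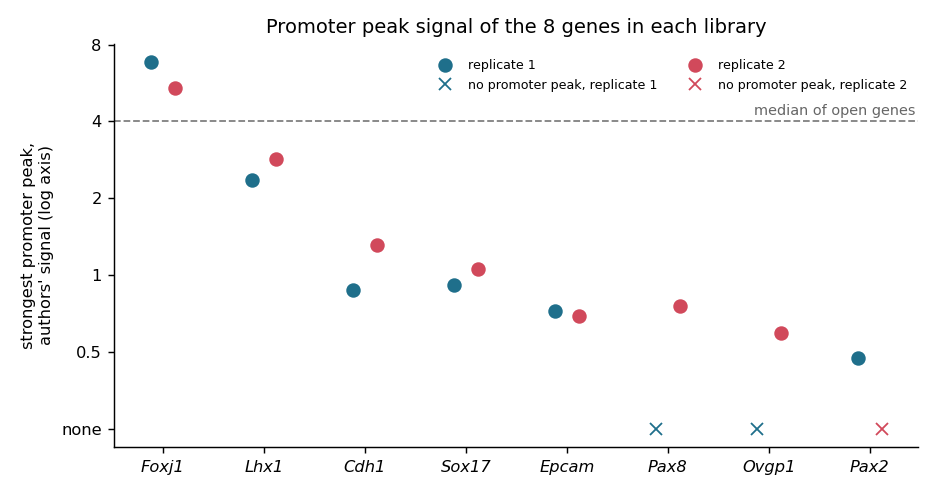
Signal of the strongest promoter peak (authors' unit, log axis) of each gene in replicate 1 and replicate 2, with crosses where no promoter peak was listed and a dashed line at 4.03, the median of all genes open in both libraries. Foxj1 lies above the line in both libraries, the other 4 open genes lie below it, and Pax8, Ovgp1 and Pax2 have 1 value each.

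Foxj1, which switches on the genes of motile cilia (minus strand of chromosome 11, 116330704 to 116335399), had the strongest promoter of the group. Its signal was 6.81 in replicate 1 and 5.39 in replicate 2. The mean, 6.10 ± 1.01 (SD, n = 2), stood at the 67.2nd percentile of open genes. Both libraries lie above every other member. The peak began at 116335361 in both and ended at 116335540 and 116335560, with its centre 52 and 62 bp upstream of the 5′ end. It held 6 and 4 footprints. The authors' false discovery rate of the cut rate was lowest at 2.00e-53 and 2.24e-37 there, and within 500 bp of the 5′ end 623 bases were below 0.05 in each library. A weaker peak upstream, 116335681 to 116335991, had 1.05 and 0.836 and no footprint.

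Lhx1, a LIM homeodomain factor of duct and kidney development (minus strand of chromosome 11, 84518284 to 84525535), had a promoter signal of 2.36 in replicate 1 and 2.85 in replicate 2. The mean was 2.61 ± 0.350 (SD, n = 2), at the 34.1st percentile. Its peak (84522661 to 84522880 in replicate 1) did not lie at the annotated 5′ end. It lay at an annotated start 2824 bp inside the gene, with centres 60 and 50 bp before that start. Around the 5′ end itself, no base within 500 bp was below 0.05 in either library, although Lhx1 has the highest CpG ratio of the 8 genes there.

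Sox17 (minus strand of chromosome 1, 4490931 to 4497354) showed the same arrangement. Its promoter signal was 0.915 in replicate 1 and 1.06 in replicate 2. The mean, 0.985 ± 0.0991 (SD, n = 2), stood at the 10.7th percentile. The peak (4493481 to 4493840) lay at annotated starts well inside the gene, around one 3750 bp after the 5′ end, and no base within 500 bp of the 5′ end was below 0.05 in either library. It was the only shared region within 50 kb of Sox17. A region was shared when the merged peaks of both libraries held at least 1 peak of each.

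The paired-box genes were at the edge of detection. Pax8 (minus strand of chromosome 2, 24420560 to 24475599) had no promoter peak in replicate 1 and one of 0.758 in replicate 2, at 24475501 to 24475740, across the annotated 5′ end. That peak was also in the shorter list of replicate 2 and held 2 footprints. Replicate 1 was not blank there: 20 bases within 500 bp of the 5′ end were below 0.05, with a lowest rate of 0.0395, against 264 bases and 8.97e-06 in replicate 2. The long non-coding gene Gm13415 overlaps this end of Pax8, and DNase cuts carry no strand, so the peak cannot be given to either gene alone.

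Pax2 (plus strand of chromosome 19, 44756045 to 44837871) had a promoter peak of 0.474 in replicate 1, 206 bp inside the gene, and none in replicate 2. Replicate 2 had a peak of 0.477 centred 0.568 kb inside the gene, just outside the 500 bp window, and the peaks did not touch. Within 500 bp of the 5′ end 141 bases of replicate 1 and no base of replicate 2 were below 0.05. Pax2 was thus weak in both libraries and at different positions.

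Ovgp1 (plus strand of chromosome 3, 105973711 to 105987423), the one secreted product among the 8 genes, had no promoter peak in replicate 1. In replicate 2 it had a peak of 0.594 at 105973642 to 105973844, with 3 footprints, absent from the shorter list. The non-coding gene Gm42890 overlaps this peak, which likewise cannot be given to either gene alone. The lowest rate in that window was 0.00158 in replicate 2, and no base was below 0.05 in replicate 1. Signal comes in whole steps of 0.0108 in replicate 1 and 0.00782 in replicate 2, so these weak peaks are 76 steps for Ovgp1, 97 for Pax8 and 44 for Pax2, beside 633 and 689 for Foxj1. What 1 step counts is not stated and the absolute depth is unknown, so no counting interval was computed.

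Of the adhesion genes, Cdh1 (plus strand of chromosome 8, 106603351 to 106670246) had a promoter signal of 0.872 in replicate 1 and 1.31 in replicate 2. The mean, 1.09 ± 0.306 (SD, n = 2), stood at the 12.6th percentile. Its peak covered the annotated 5′ end, with centres 10 bp after it and 20 bp before it, and held 3 and 2 footprints. The lowest rates were close, at 2.09e-09 and 1.63e-09. Epcam (plus strand of chromosome 17, 87635979 to 87651129) had 0.721 and 0.688, a mean of 0.705 ± 0.0236, at the 5.68th percentile. The near-equal values hide a difference in place. The strongest Epcam peak was at 87636421 to 87636830 in replicate 1 and at 87637115 to 87637294 in replicate 2, centred 647 and 1226 bp inside the gene. Both places had a peak in each library, with 0.721 and 0.664 at the first and 0.398 and 0.688 at the next. Within 500 bp of the 5′ end 68 bases of replicate 1 and none of replicate 2 were below 0.05. That window ends inside the first place, where all 410 bases were below 0.05 in replicate 1.

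**Figure D2:**
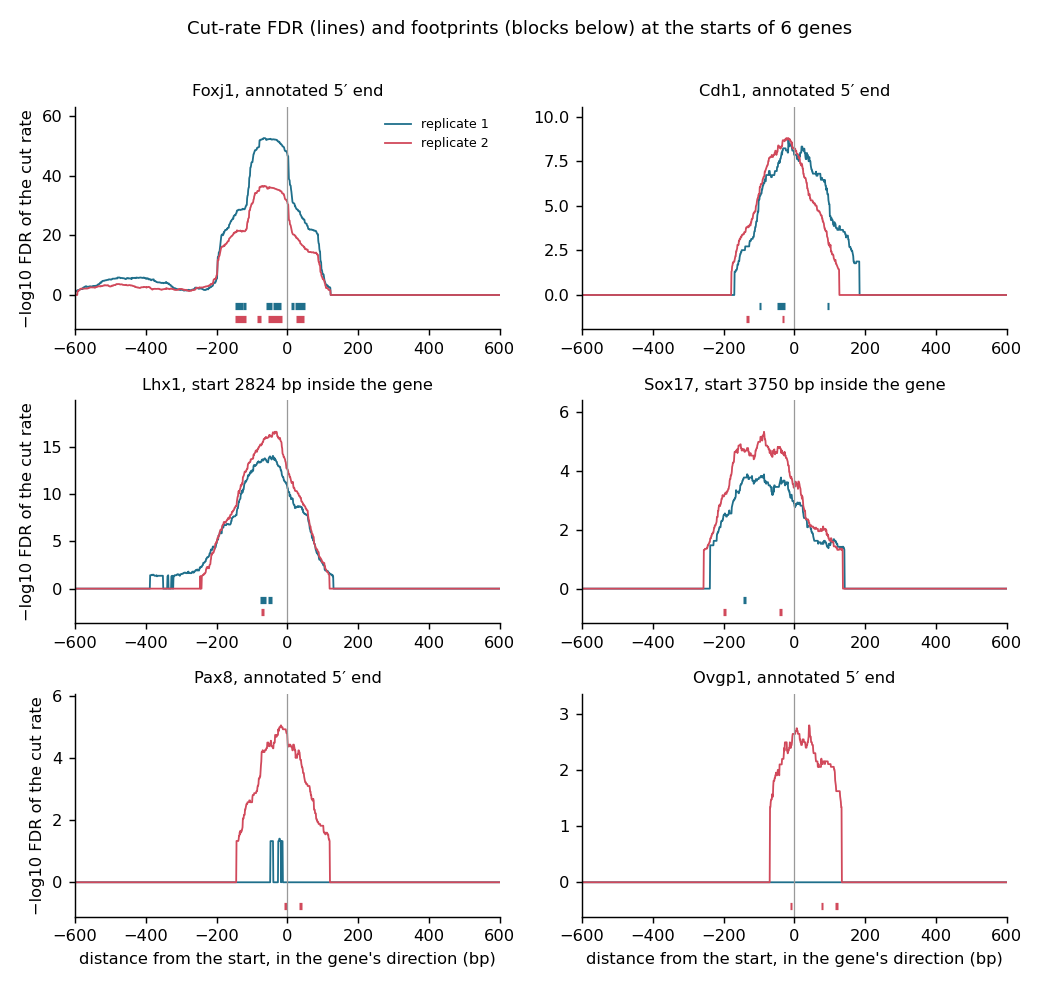
The −log10 of the authors' false discovery rate of the cut rate by distance (bp) from a start of 6 genes, in each library, with footprints as blocks below; bases that were not listed (0.05 or above) are drawn at 0, and each panel has its own scale. Foxj1, Cdh1, Lhx1 and Sox17 rise in both libraries, Lhx1 and Sox17 at starts inside the gene, and Pax8 and Ovgp1 rise mainly or only in replicate 2.

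The 8 loci, gene bodies with 50 kb either side, cover 1051 kb together. They held 73 regions, of which 44 were shared, 18 had a peak in replicate 1 only and 11 in replicate 2 only. The shared part of all regions of the genome was 57.7% (64875 of 112418). Density came to 4.19 shared regions per 100 kb, near the median of 4.48 over all gene loci. It was uneven. The Foxj1 locus had 10 shared regions, or 9.55 per 100 kb, at the 84.9th percentile of all gene loci, followed by Epcam with 8 (6.95) and Cdh1 with 11 (6.59). Pax8 had 6 (3.87), Lhx1 3 (2.80), Ovgp1 3 (2.64), Pax2 2 (1.10) and Sox17 1 (0.940 per 100 kb, the 17.5th percentile).

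Of the 44 shared regions, 7 were promoters of the members, 9 were promoters of neighbours and 28 lay elsewhere, namely 14 in intergenic sequence, 10 in introns and 4 in exons. The neighbours' promoters were the strong ones. Their median signal was 4.21 in replicate 1 and 2.95 in replicate 2, against 0.915 and 1.06 at the members' own promoters and 0.807 and 0.754 at the other regions. At Ovgp1, Lhx1, Cdh1 and Pax8 the strongest shared region of the locus was the promoter of a neighbour. At Foxj1 and Sox17 it was the member's own promoter, and at Pax2 it was a region beyond the 3′ end.

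**Figure D3:**
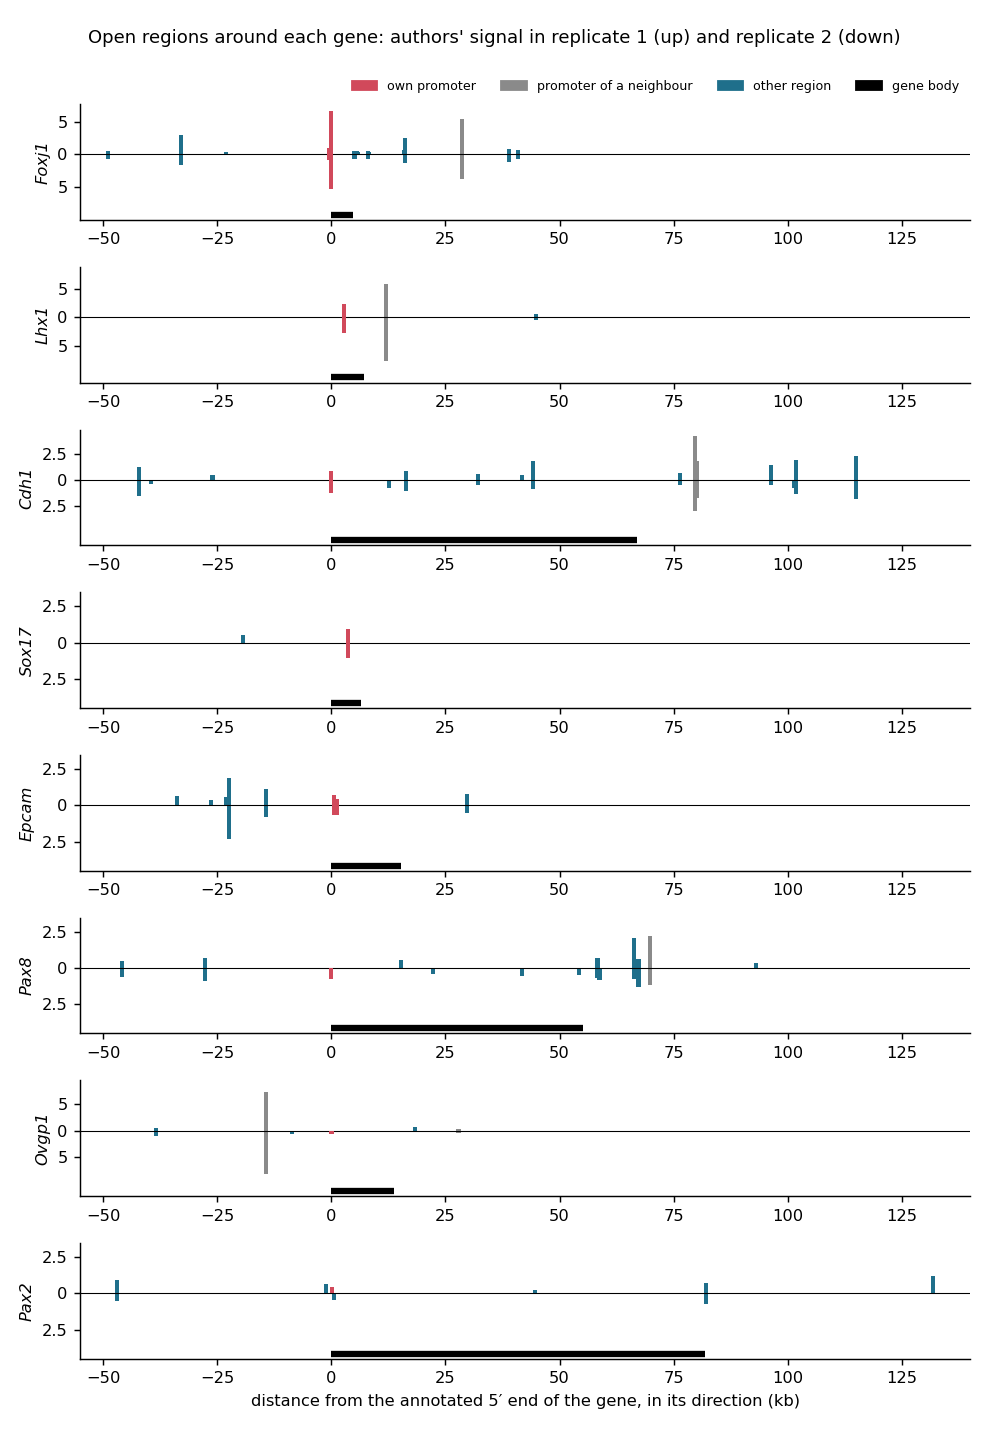
Authors' signal of the regions reported in the 8 loci by distance (kb) from the annotated 5′ end in the direction of the gene, replicate 1 upward and replicate 2 downward, with the gene body as a black bar and a separate scale for each panel. The members' own promoters (red) are small beside a neighbour's promoter (grey) at Lhx1, Cdh1, Pax8 and Ovgp1, and the Sox17 and Pax2 loci hold few regions.

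At Ovgp1 the strong neighbour was the promoter shared by Atp5f1, a subunit of ATP synthase, and Wdr77, with 7.29 and 8.29. At Lhx1 it was Aatf with 5.88 and 7.68, only 11.9 kb from the Lhx1 5′ end. At Cdh1 it was Tango6 with 4.21 and 2.95, and at Pax8 it was Psd4 with 2.19 and 1.18. Each of these exceeded the member's own promoter in both libraries. The Psd4 peak lay at an annotated start 69.7 kb from the Pax8 5′ end. The annotated 5′ end of Psd4 lies 108.0 kb away, outside the locus, and the strongest Psd4 promoter peak of replicate 2, with 1.45, was elsewhere. In the Foxj1 locus the promoter of Exoc7, a subunit of the exocyst, had 5.57 and 3.85, below Foxj1 in both. Pifo, a gene of the primary cilium near Ovgp1, had 0.398 and 0.391. That peak lay at an annotated start 27.8 kb from the Ovgp1 5′ end, whereas the annotated 5′ end of Pifo lies 40.9 kb away. Galr2, Chil5, I830077J02Rik and Gm10073 had no promoter peak in either library, and the Rnf157 start inside the Foxj1 locus had none.

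Away from promoters, the strongest site by mean signal was in the Foxj1 locus. The region, in an intron of Rnf157, 32.9 kb upstream (116368221 to 116368380), had 2.99 in replicate 1 and 1.70 in replicate 2. An intergenic region 16.2 kb downstream of the 5′ end (116319081 to 116319280) had 2.52 and 1.38, and one in an intron of Exoc7 at 39.0 kb (116296221 to 116296625) had 0.829 and 1.11. Near the 3′ end of Foxj1, weaker intergenic regions at 5.07 and 8.0 kb had 0.614 and 0.696, and 0.560 and 0.703. At Epcam, intergenic regions 22.5 and 14.3 kb upstream had 1.85 and 2.30, and 1.13 and 0.789, and one 29.7 kb downstream of the 5′ end had 0.797 and 0.539. The first of these was the strongest site away from promoters in replicate 2. The upstream regions were both stronger than the Epcam promoter in each library.

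Cdh1 was the one member with several shared regions inside its own gene body apart from the promoter. In its introns lay regions at 16.4, 32.1 and 44.3 kb from the 5′ end. The last of these (106647501 to 106647700) had 1.81 in replicate 1 and 0.836 in replicate 2, and the others had 0.818 and 1.02, and 0.560 and 0.453. Exons of Tango6, 101.8 and 115.0 kb away, held regions of 1.88 and 1.38, and of 2.34 and 1.86. An intergenic region 42.1 kb upstream had 1.22 and 1.59. The order of the intronic regions at 16.4 and 44.3 kb differed between the libraries.

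In contrast, Pax8 had no shared region inside its gene body of 55.04 kb. Its shared regions lay 45.9 and 27.7 kb upstream (0.495 and 0.594, and 0.710 and 0.891) and from 58.3 kb on, beyond its 3′ end. The strongest were in exons of Psd4, at 66.2 kb (24409281 to 24409480, with 2.07 in replicate 1 and 0.750 in replicate 2) and at 67.3 kb (24408172 to 24408460, with 0.635 and 1.27). Their order differed between the libraries. Pax2, with a gene body of 81.827 kb, had none inside either. A region 46.9 kb upstream of Pax2 had 0.947 and 0.50, and one just past its 3′ end had 0.700 and 0.758. The Ovgp1 locus had a single shared region away from promoters, 38.4 kb upstream (0.571 and 0.907), and the Lhx1 locus one, in an intron of Aatf (0.538 and 0.414).

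**Figure D4:**
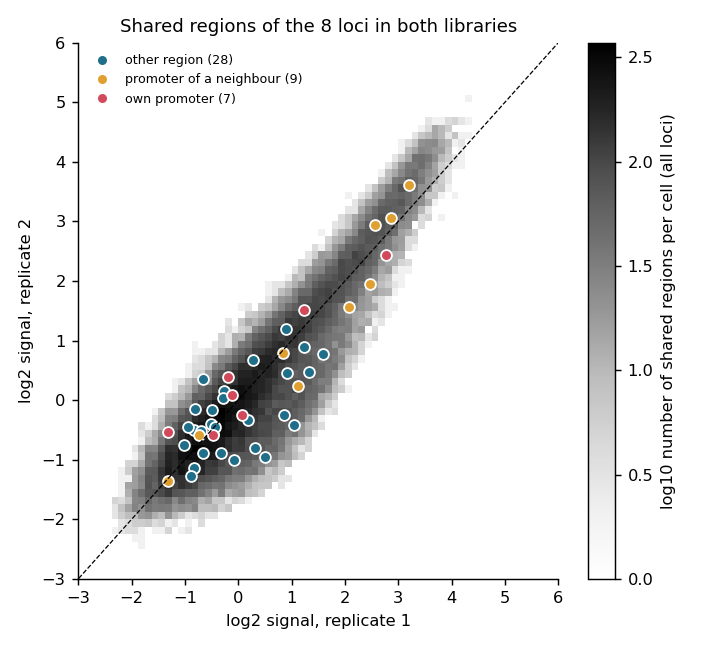
Log2 of the authors' signal in replicate 1 (x axis) and replicate 2 (y axis) for the 44 shared regions of the 8 loci, coloured by class, over the density of all 64875 shared regions in grey (log10 scale), with the line of equal signal dashed. The 44 regions lie within the spread of all shared regions, and the promoters of neighbours reach the highest values.

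The median offset between the libraries at these regions was about that elsewhere. Over the 44 regions the median log2 ratio (replicate 2 over replicate 1) was -0.03, the same to 2 decimals as over all shared regions, where the SD was 0.56. The SD over the 44 regions was not computed. The lowest ratio was -1.46, at an exon region and at an intron region, of Psd4 and of Tango6, and the highest was 1.00, at another exon region of Psd4. In the Cdh1 locus 8 of 11 regions were lower in replicate 2, with a median of -0.30, while the Cdh1 promoter itself was higher there by 0.58. Of the 29 regions with a peak in 1 library only, 3 held bases below 0.05 in the other library, all of them regions of replicate 2 only. The same count was not made over all regions of 1 library in the genome, so the 3 of 29 says nothing particular about these loci.

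Footprints in the 44 shared regions numbered 86 in replicate 1 and 107 in replicate 2. Of these, 65.1% in replicate 1 and 50.5% in replicate 2 overlapped a footprint of the other library, against 57.9% and 50.9% in all shared regions. Merging overlapping footprints gave 134 places, 51 of them in both libraries, 30 in replicate 1 only and 53 in replicate 2 only. The promoters of neighbours had 18 of their 32 places in both libraries. At the members' own promoters 5 places were in both, 7 in replicate 1 only and 5 in replicate 2 only. The other regions had 28, 19 and 38. The difference between these classes was not tested, and merged places were not counted over all shared regions of the genome.

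The following footprints outside promoters, and the one of Lhx1, are shown because a footprint of each library overlapped there, and the pair was merged into 1 stretch. Each line gives the footprint with 10 bp either side on the strand of the member. Capitals mark consensus matches centred in the merged stretch, which can lie in the footprint of 1 library only. The last pair of lines has no such match, although the Pax2 line holds GGGCGG at the edge of its footprint, centred outside it.
Foxj1 16.2 kb downstream chr11:116319149-116319200 (minus strand): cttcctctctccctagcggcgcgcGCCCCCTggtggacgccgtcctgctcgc
Foxj1 8.0 kb downstream chr11:116327413-116327440 (minus strand): ccccaaagGTAAACAGGTGtgtaaggat
Cdh1 intron at 44.3 kb chr8:106647574-106647617 (plus strand): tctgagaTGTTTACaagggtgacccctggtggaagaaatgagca
Pax8 27.7 kb upstream chr2:24503220-24503248 (minus strand): aggggtgaaaggtCACCTGgaacagctag
Epcam 14.3 kb upstream chr17:87621650-87621687 (plus strand): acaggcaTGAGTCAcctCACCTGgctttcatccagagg
Foxj1 32.9 kb upstream chr11:116368296-116368354 (minus strand): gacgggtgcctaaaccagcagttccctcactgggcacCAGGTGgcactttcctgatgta
Ovgp1 38.4 kb upstream chr3:105935253-105935296 (plus strand): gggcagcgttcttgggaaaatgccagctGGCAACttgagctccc
Lhx1 internal start chr11:84522762-84522799 (minus strand): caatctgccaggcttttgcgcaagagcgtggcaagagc
Pax2 46.9 kb upstream chr19:44709089-44709120 (plus strand): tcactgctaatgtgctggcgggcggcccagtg

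The first line holds GCCCCCT, the complement of the letters AGGGGGC, a core of the motif of CTCF, an insulator protein. All 4 CTCF matches in the 44 regions had their centre in a footprint, 3 of them in footprints of both libraries. No such count was made over all shared regions of the genome. In the next pair the capitals include GTAAACA or TGTTTAC, the forkhead consensus of the family that Foxj1 belongs to. It was centred in footprints of both libraries near Foxj1 and of replicate 1 only in the Cdh1 intron. Near Foxj1 it overlaps an E-box match, CACCTG or CAGGTG, the sequence bound by the SNAI and ZEB repressors of Cdh1. The E-box letters recur upstream of Pax8, Epcam and Foxj1, each time centred in footprints of both libraries. The Epcam line also has a match to the AP-1 consensus TGANTCA, and the Ovgp1 line one to GTTGCC or GGCAAC, an RFX half-site, both centred in a footprint of replicate 2 only.

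In all, 16 consensus sequences were searched on both strands, with no mismatch, in the central 200 bp of each shared region. E-box letters were found in 15 of the 44 regions, in 5 loci, or 34.1% against 11.4% of all 64875 shared regions. Forkhead letters were found in 4 (9.09% against 2.92%) and RFX half-sites in 7 (15.9% against 9.76%). Other sequences included SP/KLF (GGGCGG) in 15 (34.1% against 24.9%), NFY (CCAAT) in 12 (27.3% against 23.1%), AP-1 in 6 (13.6% against 10.2%) and CTCF in 4 (9.09% against 9.35%). ETS (CCGGAA) was in 5 (11.4% against 8.70%), RUNX (TGTGGT) in 5 (11.4% against 13.1%) and SOX (ACAATGG) in 2 (4.55% against 1.93%).

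NR5A letters (CAAGGTCA) were in 1 region (2.27% against 4.91%), GATA letters (AGATAA) in 2 (4.55% against 9.94%) and TEAD letters (GGAATG) in 1 (2.27% against 11.3%). The NR5A match, 14.3 kb upstream of Epcam, lay in a footprint of both libraries. PAX letters (GTCACGC) were in 1 region, the Exoc7 promoter (2.27% against 1.43%), and homeobox (TAATTA) and GRHL (AACCGGTT) letters in none (against 1.75% and 0.0940%). Regions of 1 locus share their neighbourhood and base composition, and the shares were not tested.

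A match did not usually mean a footprint in the 44 regions, the only ones in which this was counted. Of 19 E-box matches 5 had their centre in a footprint of either library and 4 in footprints of both. For SP/KLF the counts were 12 and 7 of 24, and for NFY 2 and 0 of 15. The Cdh1 promoter illustrates this. It held 3 E-box matches, at 106603282, 106603288 and 106603338, all visible in the stretch printed above, and none lay in a footprint. The NFY match at 106603303 and the SP/KLF match at 106603320 lay in a footprint of replicate 1. In the Foxj1 promoter both SP/KLF matches lay in footprints of both libraries, the NFY match in a footprint of replicate 1, and the RFX half-site in none.

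Related genes were counted by the same rule, in lists written from the genes' known roles. Ciliated cell genes were open in both libraries at 11 of 14 promoters (78.6%, against 62.3% of all genes), with a median signal of 4.70. Rfx2, a regulator of ciliary genes, had 9.90 in replicate 1 and 12.4 in replicate 2. Ccno, needed to multiply centrioles, had 7.51 and 13.5, and Tppp3, a tubulin-binding protein of ciliated cells, had 7.34 and 9.29. Dnaic1, a dynein chain of motile cilia, had 10.5 and 15.9, but its start lies within 500 bp of that of Fam219a. Ccdc39, Tekt1, Dnaic2 and Ccdc40 had means of 1.58, 1.78, 2.09 and 2.28, below 4.03, the median of all open genes. The other open genes of the list lay above that median. The Ccdc40 peak was centred 30.1 kb from its annotated 5′ end. The upstream regulators were less open. Mcidas had 0.872 in replicate 1 only, and Gmnc had no promoter peak, nor had the dynein gene Dnah5.

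Secretory epithelium genes were open at 6 of 12 promoters (50%, against 62.3% of all genes), with a median signal of 1.07. The strongest was Elf3, an epithelial transcription factor, with 1.40 in replicate 1 and 1.81 in replicate 2, below the genome median of open genes. Keratins Krt8, Krt19 and Krt7 had means of 1.25 ± 0.353, 0.765 ± 0.123 and 0.710 ± 0.289 (SD, n = 2). The Krt19 and Krt7 peaks were centred up to 2.7 and 1.3 kb from the annotated 5′ end. Krt18 and Wfdc2 had a promoter peak in 1 library only, and the mucin genes Muc1 and Muc16, with Cldn4 and Ehf, had none in either.

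**Figure D5:**
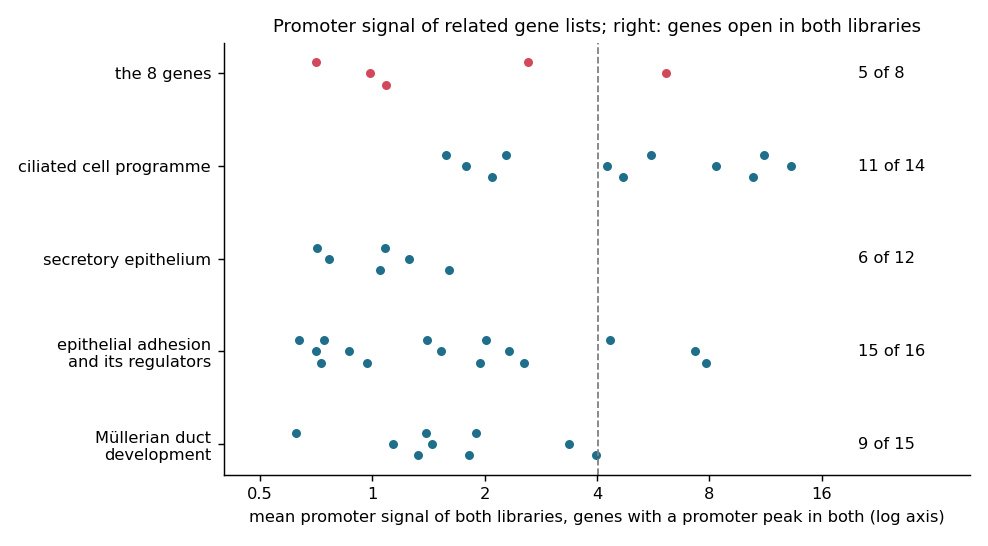
Mean promoter signal of both libraries (authors' unit, log axis) for each gene open in both, in the 8 genes and 4 related lists, with a dashed line at the median of all open genes and the number of open genes at the right. Ciliated cell genes reach 13.2 at Dnaic1, whose start lies within 500 bp of that of Fam219a, and no secretory epithelium gene exceeds 1.60.

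Genes of epithelial adhesion and its regulators were open at 15 of 16 promoters (93.8%), against 62.3% of all genes. The open ones had a median signal of 1.52. The list joins genes of opposite roles. Most repressors of Cdh1 had a higher promoter signal than Cdh1. Snai1 had 6.88 in replicate 1 and 8.74 in replicate 2, Snai2 2.77 and 2.32, Zeb1 2.45 and 2.19, and Zeb2 2.05 and 1.99, all above Cdh1 in both libraries. Twist1, with 0.829 and 1.11, was below it in both. The Zeb2 peak was centred 62.9 kb from the annotated 5′ end of Zeb2, whereas the Cdh1 peak covered its 5′ end. Cdh2, the N-cadherin gene, had 1.73 and 2.15. The catenins Ctnnb1 and Ctnnd1, which bind cadherins of many cell types, had 7.32 ± 0.343 and 4.34 ± 0.365 (SD, n = 2). The Ctnnb1 peak was centred 4.2 kb from its annotated 5′ end. Genes used mostly by epithelia were low, from Esrp2 at 1.40 ± 0.423 and Crb3 at 0.868 ± 0.132, whose start lies within 500 bp of that of Slc25a23, down to Grhl2 at 0.729 ± 0.163, Cldn7 at 0.742 ± 0.0320, Ocln at 0.708 ± 0.0268 and Esrp1 at 0.636 ± 0.0146. Cdh3, next to Cdh1, had 0.852 in replicate 2 only.

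Genes of Müllerian duct development were open at 9 of 15 promoters (60%), near the 62.3% of all genes, with a median of 1.44. Emx2, a homeobox gene of the urogenital ridge, had 4.19 in replicate 1 and 3.77 in replicate 2. Wnt4, which is needed for duct and ovary formation, had 3.09 and 3.66, and Amhr2, the receptor of anti-Müllerian hormone, had 1.47 and 2.31. Of the Hoxa genes that pattern the ducts, Hoxa10 had 1.68 and 0.969, and Hoxa9, Hoxa11 and Hoxa13 had no promoter peak. Neither Wnt9b nor Gata3 had one. Over the 4 lists 41 of 57 promoters were open (71.9%, against 62.3% of all genes), and the difference was not tested.

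Promoters of marker genes of other cell types were called by the same rule, by which 62.3% of all genes were open. With lists this short, the counts alone do not tell cell types apart. Granulosa cell markers were open at 5 of 6, among them Inha (5.02 ± 1.18, SD, n = 2), and Fshr had a peak in replicate 2 only. Another of the 5, Cyp19a1, had 1.02 and 0.743, at a peak centred up to 86.6 kb from its annotated 5′ end. Stroma markers were open at 4 of 4 promoters, with the Pdgfra peak centred up to 4.1 kb from its annotated 5′ end. The markers of oviduct cells add little, since Foxj1 is 1 of the 3 ciliated markers, with Tppp3 and Ccdc39 from the ciliated list (3 of 3 open), and Ovgp1 and Pax8 are the 2 secretory markers (0 of 2). Markers of ovarian surface epithelium were open at 2 of 6, Wt1 and Aldh1a2, while Upk1b, Upk3b and Lrrn4 had no promoter peak. Kidney tubule cells also express Pax8, Pax2 and Lhx1, and there Umod and Slc12a1 had no promoter peak and Aqp2 had 1.08 ± 0.0782. For gut epithelium 1 of 3 was open, Vil1 with 1.26 and 1.13, at a peak centred 9.9 kb from its annotated 5′ end. For endothelium 2 of 3 and for macrophages 0 of 3 were open. The part of any of these cells in the openings at the 8 genes was not tested. In whole tissue, a site open in few cells and a site weakly open in many cannot be told apart.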

How the data were processed

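DNase-seq peaks, cut rates and footprints were deposited for 2 ovary libraries, on mouse build mm10, each from the alignments of 1 library with no pooling, per the text files deposited with the samples. The aligner, the callers, their versions and the treatment of CAST alleles are details not given in the sources used here. Each peak's signal was deposited scaled for depth by the authors, in whole steps (100% of values within 0.05 of a step). Deposited values of the false discovery rate of the cut rate, read as a p-value or q-value, are listed only below 0.05. Deposited footprints have a constant label of 0.01, whose kind is not stated. The longer lists held 95898 and 83982 peaks with a median signal of 0.797 in each, the shorter lists 60823 and 50503, and the footprint lists 181762 and 200993. Absolute depth is unknown.

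Peaks were joined with GENCODE M21 genes, and sequences were read from GRCm38.p6 (RefSeq), whose chromosome lengths fit the files. Chromosome Y was left out. Percentiles of signal are among genes open in both libraries. Software was samtools 1.23.1, Matplotlib 3.10.9, pandas 2.3.3, NumPy 2.4.6 and Python 3.11.15. Overlaps of peaks and promoter calls were tested on simulated peaks, and sequence matches were not. Named are the 8 genes, protein-coding genes with a start in their loci, and genes of the 4 related and the marker lists. Of the regions away from promoters, the 3 strongest by mean rank in each locus are named, apart from genes not reported, and the others named were chosen after their values were seen, as were the footprints printed. The members and lists were chosen with earlier results of these data known. Alternatives were the shorter lists, the strongest 20000 peaks, promoters of 2000 bp or at the annotated 5′ end only, a flank of 10 kb, a reciprocal overlap of 50%, and each replicate left out. Some genes that these rules take in are not reported here, and their regions are not drawn in the maps of the loci.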

Additional observations from a re-analysis of the deposited data

How the results depend on the processing

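With only the annotated 5′ end counted, 2 of the 8 genes, Foxj1 and Cdh1, were open in both libraries (56.6% of all genes), and the median signal of these was 3.59. Among the strongest 20000 peaks of each library 2 genes, Foxj1 and Lhx1, were open (46.1% of all genes), with a median of 4.35, and the loci held 10 shared regions, 0.951 per 100 kb. In that setting 16 of the 57 related genes were open. With the shorter lists 5 genes were open (58% of all genes), and shared regions fell to 29, or 2.76 per 100 kb. With flanks of 10 kb there were 16 shared regions, by construction, and the footprint overlap averaged over both directions was 46.9% in place of 57.8%. With promoters of 2000 bp Pax2 became open in both libraries, at a mean of 0.551, for 6 genes in all (66.2% of all genes). For Pax2 this joined separate peaks that did not overlap. Replicate 1 had 0.624 centred 1.18 kb upstream of the 5′ end, and replicate 2 had 0.477 centred 0.568 kb inside the gene. Counted in 1 library alone, 6 to 7 genes had a promoter peak, with median signals of 0.893 to 1.06. Regions then numbered 55 to 62, or 5.23 to 5.90 per 100 kb, and 43 to 44 related genes were open. A reciprocal overlap of 50% left 5 genes open (59.3% of all genes). No paired analysis was possible because the series has 1 group. The signal of weak peaks rests on fewer steps than that of strong ones, and absence from a list is not absence of cutting.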
